A study of Mus musculus with 36 samples.

Results

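The genes described here build, cross-link and cut the extracellular matrix of muscle stem cells (MuSCs), also known as satellite cells, which lie between the muscle fibre and its basement membrane. They were chosen by symbol: every collagen chain, laminin chain, matrix metalloproteinase (Mmp), tissue inhibitor of metalloproteinases (Timp), ADAM, ADAMTS and ADAMTS-like gene, lysyl oxidase, prolyl 4-hydroxylase alpha subunit and lysyl hydroxylase in the table. The rule found 83 of 11337 genes and used no measured value, although earlier results of these data were known when the genes were chosen. They comprised 27 collagens, 9 laminins, 10 Mmps, 4 Timps, 8 ADAMs, 12 ADAMTS, 3 ADAMTS-like genes, 5 lysyl oxidases and 5 collagen hydroxylases.

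Expression was measured by polyA RNA sequencing of sorted hindlimb MuSCs from 36 male mice, 1 library per mouse, given as C56BL/6 or C57BL6 by the labels. In the wheel cohort, mice of 3 months (young) or 18 months (old) lived for 3 weeks with a running wheel that was locked (6 young, 7 old) or free to turn (3 young, 5 old), and viable cells positive for VCAM and negative for CD31, CD45 and Sca1 were sorted. In the Ccnd1 cohort every mouse carried the Pax7_CreERT2 and R26R_YFP alleles, which put tamoxifen-induced Cre and a YFP reporter in Pax7-expressing cells, and every mouse received tamoxifen. Viable YFP-positive cells were sorted 6 weeks later from young mice with Ccnd1 +/+ (WT, 3 libraries), +/flox (HET, 4) or flox/flox (KO, 5) and from old WT mice (3). Ccnd1 encodes cyclin D1.

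Collagens are assembled from 3 alpha chains in the endoplasmic reticulum, where prolyl and lysyl residues are hydroxylated, and are cross-linked outside the cell by lysyl oxidases. Fibrillar collagens (types I, III and V) form the interstitial fibres, whereas type IV collagen and laminins form the polymer networks of the basement membrane that covers the satellite cell. Mmps, ADAMs and ADAMTS enzymes cut matrix and cell surface proteins, and Timps inhibit the Mmps. The niche of the satellite cell is this matrix, and quiescent satellite cells are known to make part of it themselves.

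Values are deposited RPKM (read density per kb of exon, scaled to the library's total). Levels can be compared between genes only as far as the exon lengths used match the transcripts. Sums per library ran from 273837 to 350969 RPKM, and library depth is unknown. Tests were limma fits on log2 RPKM over all 11337 genes within each cohort, and a gene is called where the Benjamini-Hochberg adjusted p was under 0.05. Each difference is in log2 RPKM with its standard error (SE). Ccnd1 ran with its genotype: medians were 11.2 RPKM in young WT (10.6 to 13.3), 7.11 in HET (6.37 to 8.13) and 2.72 in KO (2.07 to 3.40). The values had lost 6 directions of variation across libraries (residual rank 24 where 30 was possible), and young WT against young locked, like old WT against old locked, had 0 of 11337 genes at an unadjusted limma p under 0.05, and 0 adjusted calls. The age difference in the Ccnd1 cohort is therefore no independent repeat of that in the wheel cohort. Satellite cell markers were looked at beside the label: the summed level of 12 of them lay between 2376 and 3889 RPKM in every library. The largest part of that sum was Sdc4, at 1364 to 2487 RPKM. Pax7 measured 14.2 to 32.5 RPKM, Myf5 72.4 to 301 and Vcam1 122 to 240. Fibroblast markers were not absent: 11 of them summed to 750 to 1613 RPKM per library, with Gsn at 372 to 1181, Dpt at 50.4 to 339 and Ly6a (Sca1) at 40.4 to 120 RPKM, while Pdgfra reached at most 1.26 RPKM. The 4 HET libraries stood apart by keratin genes, whose summed level of 52.7 to 145 RPKM (4 genes) compares with 1.48 to 2.07 RPKM in young WT.

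The promoters of the network collagen genes below are shown because these genes sit in pairs and the pairs differed with age. Col4a1 and Col4a2 encode the main pair of type IV collagen chains and lie head to head on chromosome 8. Col4a5 and Col4a6 encode minor type IV chains and lie head to head on chromosome X. Col8a1 encodes a short-chain network collagen on chromosome 16, and had the largest wheel difference of the genes described here with a mean of at least 1 RPKM. Each sequence is a RefSeq window of 300 bases (GRCm38.p6), from 250 bases before to 50 after an annotated start, 5′ to 3′ on the strand of the gene. Capitals mark CCAAT and GGGCGG on both strands and TATAAA on the gene's strand; no motif contains another.
Col4a1: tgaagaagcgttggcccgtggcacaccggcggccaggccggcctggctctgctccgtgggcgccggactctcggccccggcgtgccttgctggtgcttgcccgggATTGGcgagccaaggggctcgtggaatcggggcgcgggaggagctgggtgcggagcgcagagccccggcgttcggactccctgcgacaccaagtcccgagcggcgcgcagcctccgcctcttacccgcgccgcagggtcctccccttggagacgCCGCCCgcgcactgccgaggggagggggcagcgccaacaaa
Col4a2: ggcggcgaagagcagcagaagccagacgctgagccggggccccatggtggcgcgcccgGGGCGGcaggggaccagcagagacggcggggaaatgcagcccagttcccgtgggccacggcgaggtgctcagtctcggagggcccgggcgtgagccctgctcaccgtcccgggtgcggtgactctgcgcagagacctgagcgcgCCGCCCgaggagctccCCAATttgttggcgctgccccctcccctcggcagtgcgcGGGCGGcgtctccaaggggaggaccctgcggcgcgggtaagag
Col4a5: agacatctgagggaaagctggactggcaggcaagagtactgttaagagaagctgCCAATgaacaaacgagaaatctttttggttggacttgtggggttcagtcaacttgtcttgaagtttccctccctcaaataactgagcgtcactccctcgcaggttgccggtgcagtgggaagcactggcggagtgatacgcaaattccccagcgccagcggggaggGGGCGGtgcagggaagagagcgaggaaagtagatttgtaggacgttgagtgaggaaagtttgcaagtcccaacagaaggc
Col4a6: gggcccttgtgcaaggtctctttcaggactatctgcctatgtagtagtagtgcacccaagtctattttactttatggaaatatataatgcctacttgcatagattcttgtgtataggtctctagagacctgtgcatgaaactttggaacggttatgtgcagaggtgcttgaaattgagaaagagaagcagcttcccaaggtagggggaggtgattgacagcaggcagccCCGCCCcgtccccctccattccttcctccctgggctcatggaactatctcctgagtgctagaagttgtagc
Col8a1: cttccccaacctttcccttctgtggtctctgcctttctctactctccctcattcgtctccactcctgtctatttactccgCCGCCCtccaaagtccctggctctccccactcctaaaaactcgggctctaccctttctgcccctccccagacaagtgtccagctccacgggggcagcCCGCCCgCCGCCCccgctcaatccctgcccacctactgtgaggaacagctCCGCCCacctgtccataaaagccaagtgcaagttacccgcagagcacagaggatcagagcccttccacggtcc

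The Col4a1 window is chr8:11312777-11313076 on the minus strand and that of Col4a2 is chr8:11312555-11312854 on the plus strand. Their annotated starts are 21 bases apart and the windows share 78 bases. The Col4a5 window is chrX:141475169-141475468 (plus) and the Col4a6 window chrX:141474027-141474326 (minus), with 1343 bases between the starts. The Col8a1 window is chr16:57754688-57754987 (minus) and holds 4 GGGCGG matches. RefSeq windows were found for 56 of the 83 genes, 62 windows in all. GGGCGG was present in 42 of these 62 (67.7%) and in 35.7% of all 32851 windows. CCAAT was present in 18 (29.0%, against 37.4% of all) and TATAAA in 8 (12.9%, against 8.32%). A match describes letters and not a bound site.

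Of the 83 genes, 72 had a mean of at least 1 RPKM over the 36 libraries, 33 at least 10 and 7 at least 100. Type III collagen (Col3a1) was the most abundant, with a mean of 283 RPKM, followed by Adamts4, a protease of proteoglycans, with 201 RPKM. Summed over the 27 collagens, young locked libraries held 985 to 1404 RPKM (median 1063) and old locked libraries 575 to 632 (median 617). Old free libraries held 806 to 976 (median 822) and young free libraries 1280 to 1297 (median 1294). The old locked range lay below the ranges of the other wheel groups, and the old free range lay below that of both young groups. In bulk samples, fewer cells of a type and less RNA per cell cannot be told apart, and this holds for each difference below.

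With age under a locked wheel, type I and type III collagen, the main type IV pair, type VI chains and laminin beta 1 and gamma 1 were lower, while 2 minor type IV chains, Col8a1 and the collagen-modifying enzyme Lox were higher. Of the 83 genes, 42 were called (50.6%), 10 higher and 32 lower, and the ranges of old and young libraries did not overlap for 22 of the 83, all of them called, against 12.4% of all genes. Over all genes the called share was 38.3%, with 20.5% called higher and 17.8% called lower. The median difference was -0.25 over the 83 genes and 0.007 over all genes. Among the 27 collagens 4 were called higher and 14 lower. This comparison answers which matrix genes differ between sorted MuSC libraries of mice of 18 and 3 months, each mouse being a replicate. It does not assign a difference to MuSCs or to other cells in the sort.

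**Figure D1:**
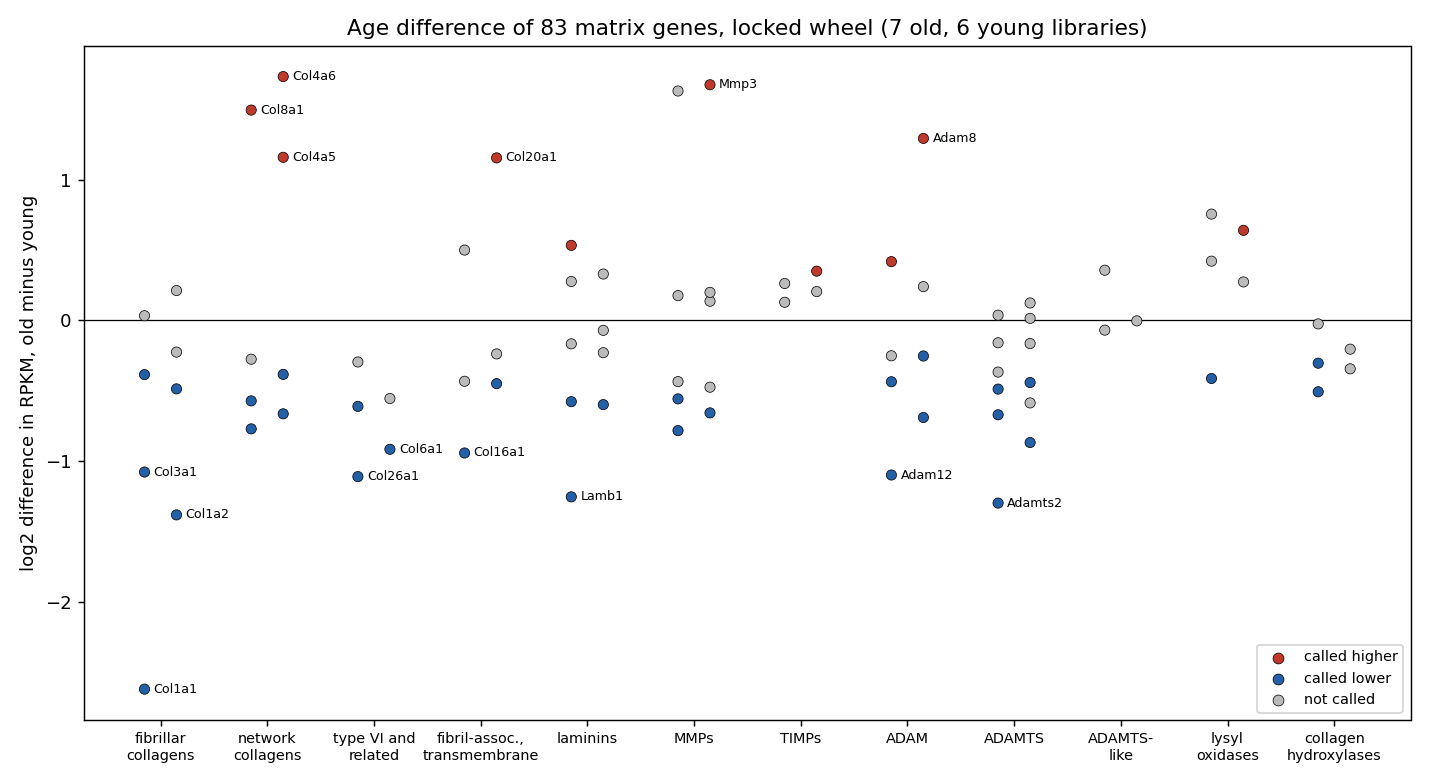
Each point is 1 of the 83 genes, placed by role on the x axis and by its fitted log2 difference (old minus young, locked wheel) on the y axis, with called genes coloured. All 5 called fibrillar collagens lie below 0, and the network collagens split, with Col4a5, Col4a6 and Col8a1 above 0 and 4 called genes below.

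Of the 8 fibrillar collagens 5 were called lower and 0 higher (62.5% called, against 38.3% of all genes). Col1a1 had the largest fall of the 83 genes. Col1a1, the alpha 1 chain of type I collagen (chr11:94936224-94953042), ranged from 65.8 to 290 RPKM in young locked libraries with a median of 131, and from 17.2 to 29.2 in old locked libraries with a median of 18.2. Every old library lay below every young one, and Col1a1 fell by 2.62 ± 0.24 (SE, adjusted p = 2.26e-07), a 6.15-fold difference. Its partner Col1a2 (chr6:4504814-4541544) ranged from 20.8 to 60.6 RPKM (median 35.1) in young and from 9.02 to 18.5 (median 11.8) in old, and fell by 1.38 ± 0.22 (adjusted p = 8.23e-05). These ranges did not overlap either, and the chains changed unequally. The ratio of Col1a1 to Col1a2 RPKM was 2.96 to 4.78 in young (median 4.01) and 1.49 to 1.90 in old (median 1.58). Merged exons in GENCODE M21 span 6.563 kb for Col1a1 and 12.426 kb for Col1a2. The ratio is therefore read only between groups, and does not give the proportion of transcripts or chains. Col3a1 (chr1:45311538-45349706) ranged from 306 to 386 RPKM (median 341) in young and from 142 to 214 (median 146) in old, without overlap, and fell by 1.08 ± 0.10 (adjusted p = 1.05e-07). Of the minor fibrillar chains Col5a2 (-0.39 ± 0.08) and Col5a3 (-0.49 ± 0.13) fell less. Col5a1, Col11a2 and Col27a1 were not called, and the 95% interval of the Col5a1 difference was -0.50 to 0.05.

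Network and basement membrane collagens moved in opposite directions. Col4a1 ranged from 131 to 235 RPKM (median 158) in young locked and from 93.2 to 111 (median 104) in old locked libraries. Col4a2 ranged from 45.2 to 89.9 RPKM (median 54.5) in young and from 28.4 to 38.6 (median 35.3) in old. Neither gene's groups overlapped, and Col4a1 (-0.66 ± 0.10, adjusted p = 4.20e-05) and Col4a2 (-0.77 ± 0.13, adjusted p = 6.57e-05) fell by similar amounts. Col4a1 RPKM was a median of 2.87 times Col4a2 in young and 2.98 times in old libraries. Col4a5 instead ranged from 1.39 to 2.11 RPKM (median 1.83) in young and from 3.46 to 4.61 (median 3.85) in old, and rose by 1.16 ± 0.12 (adjusted p = 3.13e-07). Col4a6 ranged from 0.361 to 0.929 RPKM (median 0.783) in young and from 1.70 to 2.72 (median 2.60) in old, and rose by 1.73 ± 0.23 (adjusted p = 6.76e-06). All old libraries lay above all young ones for both minor chains. They remained far below the main pair: Col4a5 was 1.13% of Col4a1 in young (0.768% to 1.38%) and 3.94% in old (3.39% to 4.24%).

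Col8a1 (chr16:57624258-57754737), a collagen known from vascular and corneal matrices, ranged from 1.99 to 4.63 RPKM (median 4.27) in young locked and from 4.84 to 19.5 (median 14.6) in old locked libraries. It rose by 1.49 ± 0.31 (adjusted p = 0.000997) without overlap. Col15a1 (-0.57 ± 0.11) and Col18a1 (-0.38 ± 0.10), basement membrane collagens that carry glycosaminoglycan chains, fell, and Col8a2 was not called. Among type VI and related chains, Col6a1 (-0.92 ± 0.10), Col6a2 (-0.61 ± 0.13) and Col26a1 (-1.11 ± 0.19) fell. Col6a3 and Col6a6 were not called, with an interval of -0.68 to 0.08 for Col6a3. Among fibril-associated and transmembrane collagens Col16a1 (-0.94 ± 0.20) and Col19a1 (-0.45 ± 0.12) fell and Col20a1 (1.15 ± 0.21) rose, while Col12a1, Col14a1 and Col17a1 were not called.

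Of 9 laminin chains 3 were called lower and 1 higher (44.4% called, against 38.3% of all genes). Lamb1, the beta 1 chain (chr12:31265234-31329644), ranged from 7.14 to 11.1 RPKM (median 8.33) in young locked and from 2.64 to 5.03 (median 3.40) in old locked libraries. It fell by 1.25 ± 0.17 (adjusted p = 9.28e-06), and the groups did not overlap. Lamc1 (-0.60 ± 0.08), the gamma chain of most laminins, and Lama5 (-0.58 ± 0.13), an alpha chain of adult basement membranes, fell too. Lama3, an alpha chain known from epithelial laminin, rose by 0.53 ± 0.12 (adjusted p = 0.00130). Lama2, the alpha chain of the mature muscle basement membrane, was not called and had an interval of -0.33 to 0.19. Lama4, Lamb2 and Lamc3 were not called. Lamb1 was 18.1% of Lamb2 RPKM in young (15.1% to 23.8%) and 8.18% in old (6.65% to 12.4%).

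Among the enzymes, Mmp2 (-0.78 ± 0.14), which cuts type IV collagen, and its membrane-bound activator Mmp14 (-0.66 ± 0.09) fell, as did Mmp19 (-0.56 ± 0.19). Mmp3, a secreted stromelysin, ranged from 1.27 to 9.43 RPKM (median 3.52) in young and from 6.95 to 26.8 (median 12.2) in old locked libraries. Its groups overlapped and it rose by 1.67 ± 0.49 (adjusted p = 0.0117). The other 6 Mmps (Mmp11, Mmp12, Mmp13, Mmp15, Mmp17 and Mmp23) were not called. Timp3 (0.35 ± 0.13) rose, and Timp1, Timp2 and Timp4 were not called, with an interval of -0.04 to 0.30 for Timp2. The Timp3 call held in 6 of 13 omissions of 1 library, whereas 37 of the 42 genes called with age were called in each omission. The ratio of Mmp2 to its inhibitor Timp2 was 0.910 to 2.37 (median 1.39) in young and 0.575 to 1.07 (median 0.748) in old, and these ranges overlapped. Many ADAMs are proteases that shed cell surface proteins. Adam12 (-1.10 ± 0.25), Adam9 (-0.69 ± 0.08), Adam17 (-0.44 ± 0.08) and Adam10 (-0.25 ± 0.09) fell, and Adam8 (1.29 ± 0.42) and Adam22 (0.42 ± 0.16) rose. Adam8 was low, at 0.0722 to 1.99 RPKM over the 36 libraries with a mean of 0.833. The Adam10 call held in 7 of 13 omissions of 1 library, and the Adam22 call in 4. Adam15 and Adam19 were not called.

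Of 12 ADAMTS genes 5 were called lower and 0 higher (41.7% called, near the 38.3% of all genes). Adamts2, which removes the amino-terminal propeptide of fibrillar procollagens, ranged from 1.14 to 2.96 RPKM (median 1.78) in young and from 0.528 to 0.993 (median 0.820) in old locked libraries. It fell by 1.30 ± 0.24 (adjusted p = 0.000285) without overlap. Adamts14 (-0.87 ± 0.26), a relative with the same substrate class, fell with it, as did the proteoglycan-cutting Adamts4 (-0.67 ± 0.15) and Adamts1 (-0.44 ± 0.08) and Adamts10 (-0.49 ± 0.13). The 3 ADAMTS-like genes and Adamts5, Adamts7, Adamts8, Adamts9, Adamts12, Adamts15 and Adamts20 were not called. Lox, the founding collagen cross-linking oxidase, ranged from 28.5 to 51.5 RPKM (median 39.6) in young and from 54.3 to 65.8 (median 63.6) in old, and rose by 0.64 ± 0.11 (adjusted p = 0.000118). Loxl3 (-0.41 ± 0.12) fell, and Loxl1, Loxl2 and Loxl4 were not called. Of the collagen hydroxylases Plod1 (-0.51 ± 0.11) and P4ha2 (-0.30 ± 0.10) fell, and P4ha1, Plod2 and Plod3 were not called.

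Other genes of the pathway, from lists drawn up for this work, were counted the same way. The called share was 36.8% of the folding and secretion list, 57.1% of the basement membrane list, 42.4% of the other matrix proteins and 33.3% of the regulators, against 38.3% of all genes. Of 19 genes for collagen folding and secretion 1 was called higher and 6 lower, among them the collagen chaperone Serpinh1 (-0.96 ± 0.09) and the coat protein Sec23a (-0.96 ± 0.11), with the glycosyltransferase Colgalt2 (0.94 ± 0.32) higher. Of 21 basement membrane partners and receptors 3 were higher, including netrin Ntn4 (0.78 ± 0.13) and integrin Itgb4 (1.12 ± 0.24). In that list 9 were lower, including the laminin receptor Itga7 (-0.69 ± 0.09) and Sgca (-0.47 ± 0.08). Of 33 other matrix proteins 7 were higher, such as Fbln5 (1.00 ± 0.13) and Efemp1 (1.43 ± 0.21), and 7 lower, such as Fbln2 (-1.23 ± 0.15) and elastin, Eln (-0.82 ± 0.18). Of 18 regulators and other proteases 4 were higher, with Plau (0.52 ± 0.15) among them, and 2 lower, Htra1 (-0.81 ± 0.14) and Prss23 (-0.66 ± 0.20).

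Markers of other cells and of satellite cells were counted with age as well, where 38.3% of all genes were called. The called share was 45.5% of fibroblast, 50% of keratinocyte, 41.7% of satellite cell and 37.5% of tendon and of Schwann cell markers. It was 30% of endothelial, 22.2% of myofibre, 20% of mural and 0% of haematopoietic markers. Fibroblast markers gave 4 higher and 1 lower of 11, summing to 1068 to 1370 RPKM in young locked and 913 to 1576 in old locked libraries. The list shares Dcn, Lum, Mfap5 and Smoc2 with the matrix lists. Tendon markers gave 3 higher of 8 (47.3 to 149 RPKM against 64.5 to 273), endothelial markers 3 higher of 10 (110 to 165 against 126 to 189), Schwann cell markers 3 higher of 8 and keratinocyte markers 2 higher of 4. Myofibre markers gave 2 lower of 9, with sums of 120 to 682 RPKM in young and 44.9 to 183 in old libraries. Mural cell markers gave 1 higher and 1 lower of 10, satellite cell markers 1 higher and 4 lower of 12, with Pax7 at -0.59 ± 0.11, and haematopoietic markers 0 of 9 (1 at an unadjusted limma p under 0.05). Their part in the matrix differences was not tested.

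A free wheel in old mice was accompanied by higher type III collagen, Col8a1 and basement membrane collagens, and by lower Lama3, Col19a1, Lox and Adamts1. Of the 83 genes 15 were called (18.1%), 11 higher and 4 lower, against 7.39% of all genes (4.09% higher and 3.3% lower). The groups did not overlap for 10 of the 83, all of them called, against 3.94% of all genes. The median difference was 0.055 over the 83 genes and -0.0082 over all genes. Of the 8 network collagens 5 were called higher and 0 lower, and of all 27 collagens 8 higher and 1 lower. Without old free replicate 3 the calls dropped from 15 to 6, with 2 network collagens higher, and 5 of the 15 genes were called in each of the 12 omissions of 1 library.

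**Figure D2:**
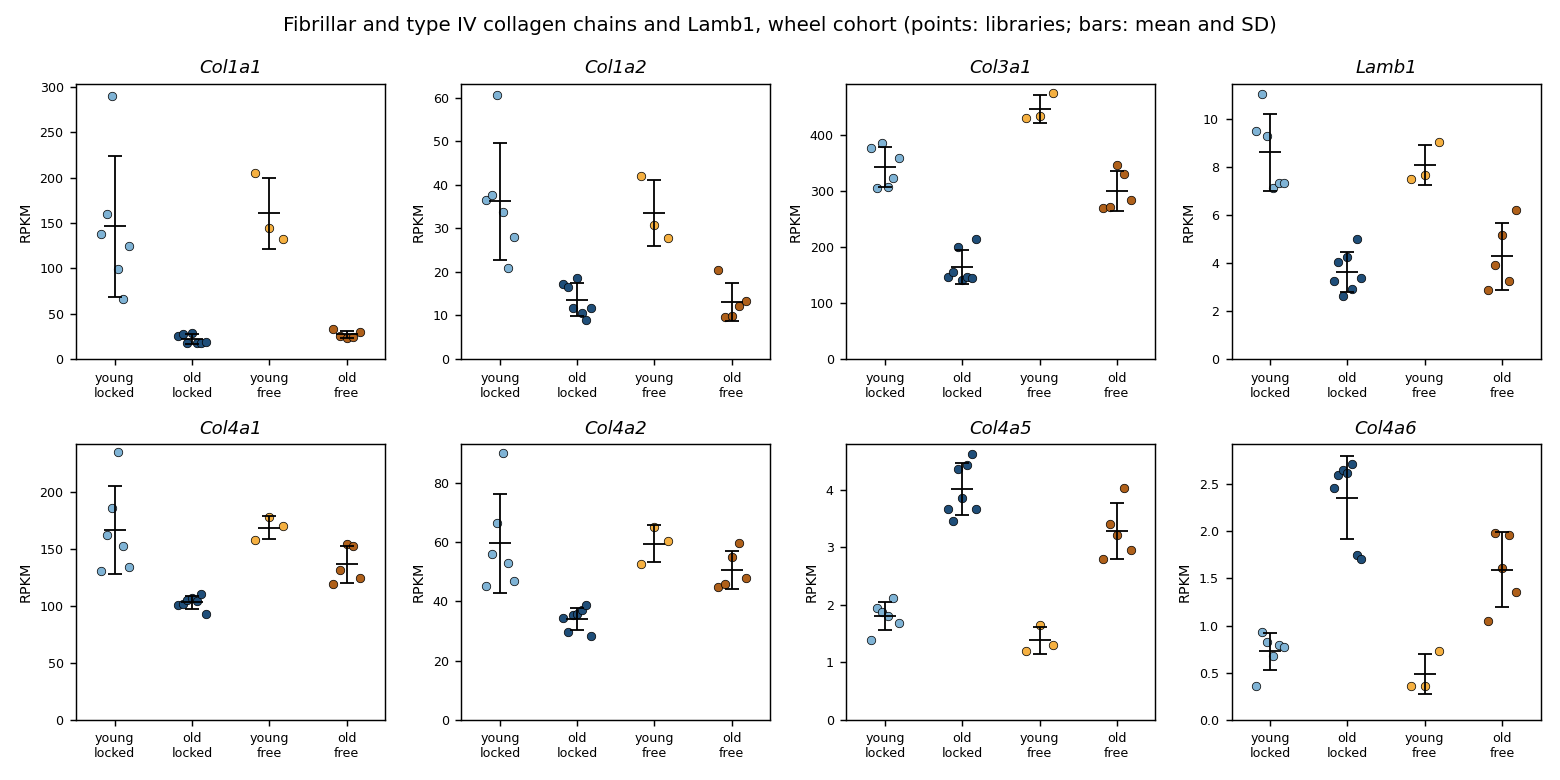
RPKM (y axis, from 0) of 8 collagen and laminin genes in the 4 groups of the wheel cohort, with points for libraries and bars for mean and SD. Col3a1 in old free libraries (269 to 346 RPKM) lies above old locked libraries (142 to 214), whereas Col1a1 in old free libraries (23.7 to 33.5) stays near old locked libraries (17.2 to 29.2).

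Col3a1 measured 269, 272, 346, 331 and 283 RPKM in the 5 old free libraries, against 142 to 214 (median 146) in old locked libraries. Every old free library lay above every old locked one, and Col3a1 rose by 0.88 ± 0.10 (adjusted p = 6.32e-05). Col1a1 measured 33.5, 25.0, 23.7, 24.6 and 29.4 RPKM in old free libraries, which overlapped the old locked range, and was not called (0.34 ± 0.25, interval -0.20 to 0.87). Col1a2 was at -0.07 ± 0.24 (interval -0.56 to 0.42). The fibrillar chains therefore differed in their calls, although no test set one chain against another. Col5a2 rose by 0.29 ± 0.08 (adjusted p = 0.0312), and was called in 6 of 12 omissions of 1 library.

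Col8a1 measured 30.7, 24.8, 28.2, 37.2 and 18.3 RPKM in old free libraries, against 4.84 to 19.5 (median 14.6) in old locked ones. The ranges overlapped through the lowest old free library, and Col8a1 rose by 1.34 ± 0.33 (adjusted p = 0.0212), a call that was lost without old free replicate 3. Col4a1 measured 119, 132, 155, 152 and 124 RPKM and rose by 0.40 ± 0.11 (adjusted p = 0.0313). Col4a2 measured 44.8, 45.8, 54.8, 59.7 and 47.8 RPKM and rose by 0.57 ± 0.13 (adjusted p = 0.0140). Both genes lay above all old locked libraries. Col15a1 measured 13.7, 16.7, 17.5, 16.4 and 15.3 RPKM, above the old locked range of 8.85 to 13.2, and rose by 0.57 ± 0.11 (adjusted p = 0.00492). Col18a1 (0.41 ± 0.10) and Col6a1 (0.37 ± 0.11) rose too. Of the 12 omissions of 1 library, Col4a1 was called in 8, Col18a1 in 11 and Col6a1 in 3. The minor chains were at -0.29 ± 0.12 (Col4a5, adjusted p = 0.150) and -0.58 ± 0.24 (Col4a6, adjusted p = 0.145) and were not called.

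Lama3 measured 4.97, 3.56, 3.77, 4.63 and 4.38 RPKM in old free libraries and 5.03 to 7.36 (median 6.62) in old locked ones. It fell by 0.63 ± 0.12 (adjusted p = 0.00585), with no overlap. Lox measured 52.3, 45.1, 39.3, 41.8 and 39.0 RPKM, all below the old locked range of 54.3 to 65.8, and fell by 0.49 ± 0.12 (adjusted p = 0.0153). Col19a1, a collagen of basement membrane zones, measured 10.4, 10.3, 10.0, 14.2 and 13.7 RPKM against 15.0 to 18.1 (median 16.1), and fell by 0.51 ± 0.13 (adjusted p = 0.0201). None of these genes' groups overlapped. Adamts1 measured 120, 124, 98.1, 123 and 127 RPKM against 128 to 160 (median 146). It fell by 0.27 ± 0.08 at an adjusted p of 0.0498, and was called in 2 of 12 omissions of 1 library. Lox lost its call without old free replicate 3, and Col19a1 without old free replicate 2 or 3.

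Of the proteases, Adam19, also called meltrin beta, measured 3.57, 2.06, 2.24, 1.10 and 2.49 RPKM in old free libraries and 0.808 to 1.58 (median 1.10) in old locked ones. The groups overlapped through the fourth library, and Adam19 rose by 0.96 ± 0.24 (adjusted p = 0.0184), a call lost without old free replicate 1. Adam12, expressed in regenerating muscle, rose by 1.18 ± 0.26 (adjusted p = 0.0109), from 0.392 to 0.877 RPKM in old locked to 0.958 to 1.70 in old free libraries. Adamts7 rose by 1.01 ± 0.27 (adjusted p = 0.0285) and was called in 6 of 12 omissions. No Mmp, Timp, ADAMTS-like gene or collagen hydroxylase was called, although 4 of 10 Mmps had an unadjusted limma p under 0.05. Mmp2 was at -0.41 ± 0.15 (adjusted p = 0.0979).

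**Figure D3:**
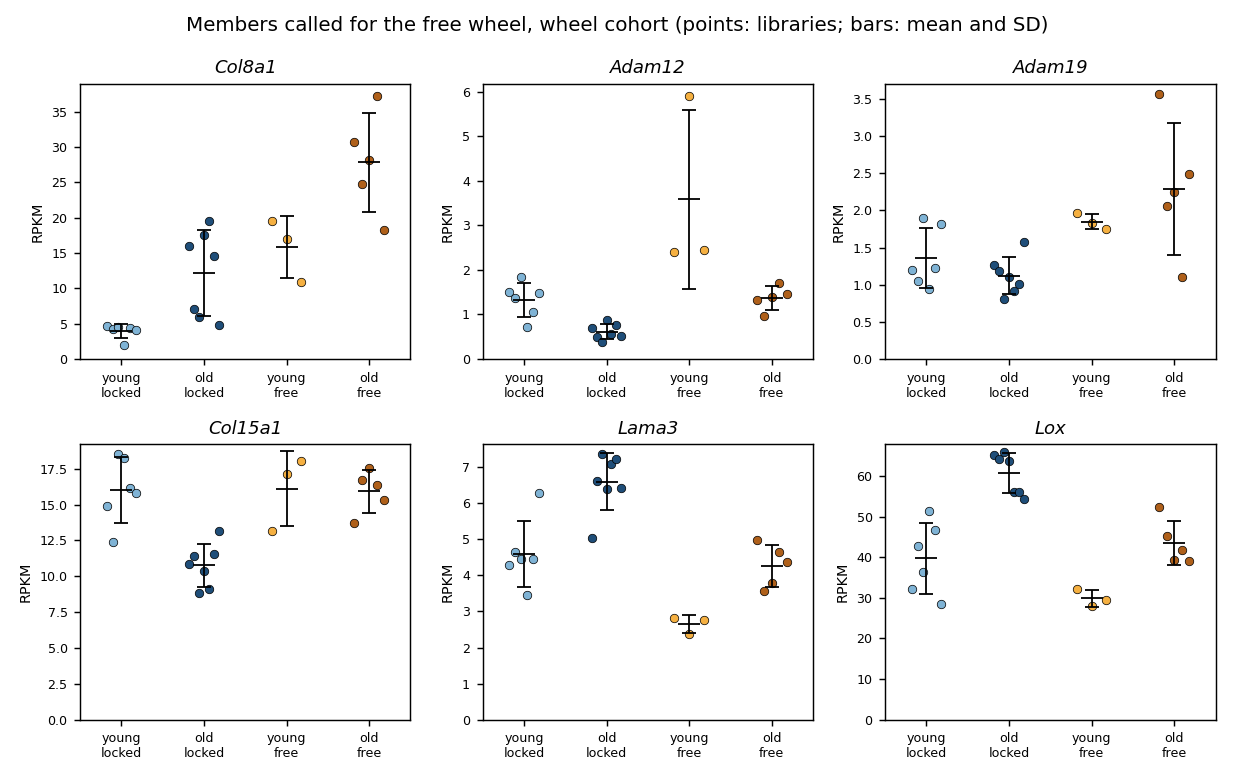
RPKM (y axis, from 0) of 6 genes called for the free wheel in the 4 groups of the wheel cohort, with points for libraries and bars for mean and SD. Col8a1 is higher with a free wheel at both ages, and Lama3 and Lox in old free libraries lie below all old locked libraries.

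The called share of the pathway lists was 31.6% for folding and secretion, 14.3% for basement membrane partners, 6.06% for other matrix proteins and 5.56% for regulators, against 7.39% of all genes. In these lists, 5 of 19 folding and secretion genes were higher with the free wheel in old mice, including Sparc (0.80 ± 0.09), a collagen-binding protein, and the prolyl isomerase Fkbp10 (0.75 ± 0.12), and P3h2 (-0.57 ± 0.17) was lower. Of 21 basement membrane partners and receptors 3 were higher, including Dag1 (0.40 ± 0.08) and Bcam (0.73 ± 0.15). Of 33 other matrix proteins 2 were higher, Bgn (1.13 ± 0.13) and Fbn1 (0.54 ± 0.09), and of 18 regulators 1, Prss23 (0.72 ± 0.21). Endothelial markers moved alongside: 3 of 10 were higher (Cldn5 0.94 ± 0.20, Kdr 0.93 ± 0.27 and Egfl7 0.62 ± 0.16), with sums of 180 to 260 RPKM in old free and 126 to 189 in old locked libraries. Pecam1, the CD31 gene, was measured at 9.11 to 28.8 RPKM over all 36 libraries. Their part in the collagen differences was not tested. Of 11 fibroblast markers 0 were called (3 at an unadjusted limma p under 0.05), and of 10 mural markers 1 was higher and 3 lower. Tendon markers gave 2 lower of 8.

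In young mice the free wheel gave 4 called genes of 83 (4.82%), 3 higher and 1 lower, against 1.12% of all genes (0.406% higher and 0.714% lower). The 3 young free libraries measured 19.6, 17.0 and 10.9 RPKM for Col8a1, against 1.99 to 4.63 (median 4.27) in young locked ones. Col8a1 rose by 2.02 ± 0.40 (adjusted p = 0.0190). Adam12 measured 2.40, 5.90 and 2.45 RPKM against 0.725 to 1.84 (median 1.43), and rose by 1.36 ± 0.32 (adjusted p = 0.0378). Adamtsl4, a protein of fibrillin microfibrils, measured 22.9, 20.7 and 19.9 RPKM against 14.4 to 17.4 (median 15.6), and rose by 0.44 ± 0.09 (adjusted p = 0.0216). Lama3 measured 2.82, 2.37 and 2.77 RPKM against 3.46 to 6.27 (median 4.45), and fell by 0.77 ± 0.15 (adjusted p = 0.0160). The groups did not overlap for 6 of the 83 genes, these 4 among them, and for 9.55% of all genes. None of the 4 was called without young free replicate 1 or 2, and Adam12 was called in 3 of 9 omissions of 1 library, being lost also without young locked replicate 2, 4, 5 or 6. Schwann cell markers moved alongside: 1 of 8 was lower (Mbp -0.71 ± 0.13), 5 had an unadjusted limma p under 0.05, and their sums were 22.8 to 26.5 RPKM in young free and 28.4 to 41.4 in young locked libraries. Their part was not tested. Of the pathway lists only other matrix proteins held calls, Bgn (0.88 ± 0.15) and Prelp (0.82 ± 0.15).

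**Figure D4:**
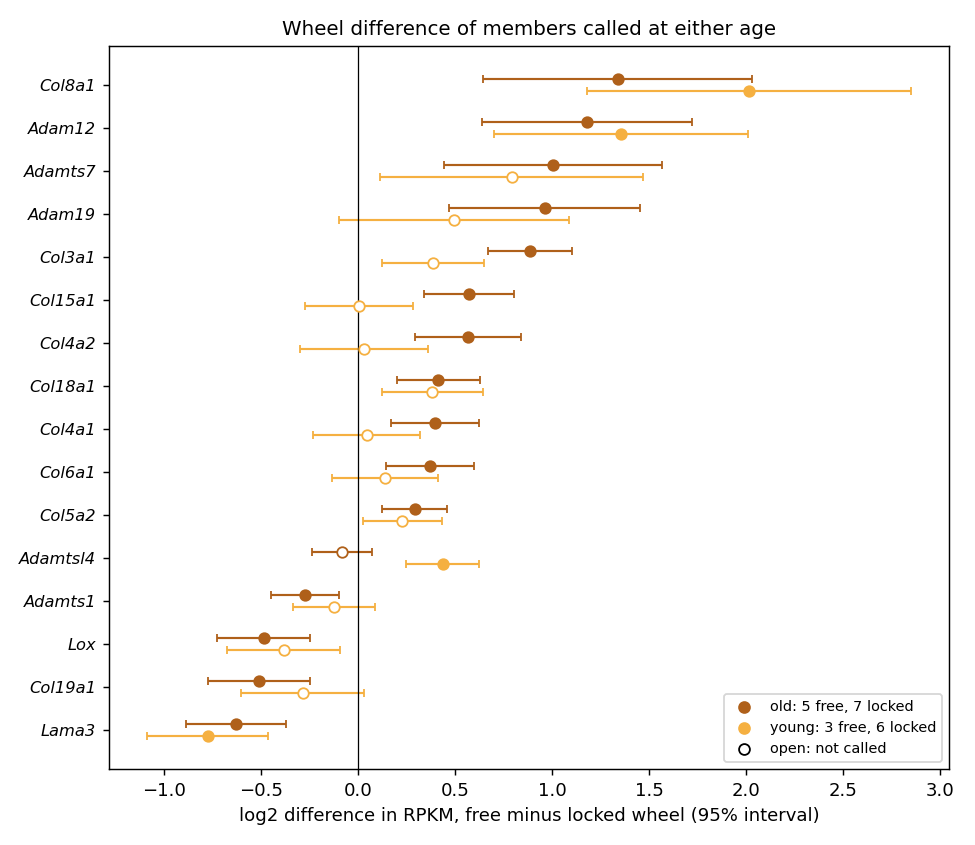
Fitted log2 difference, free minus locked wheel, with 95% intervals (x axis) for the 16 genes called at either age (y axis), with open points for differences that were not called. Col8a1, Adam12 and Lama3 were called at both ages, and the Adamtsl4 interval lies above 0 in young mice and spans 0 in old mice.

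Col8a1, Adam12 and Lama3 were called with the same sign at both ages. Whether the wheel difference itself depended on age was tested by an interaction term. It called 0 of the 83 genes and 1 of all 11337 (0.00882%), while 5 of the 83 and 960 of all genes had an unadjusted limma p under 0.05. The lowest p of the 83 belonged to Adamtsl4 (old minus young difference -0.52 ± 0.12, adjusted p = 0.241), Col15a1 (0.56 ± 0.17, adjusted p = 0.429) and Col3a1 (0.50 ± 0.16, adjusted p = 0.429). For Col4a2 the interval was 0.11 to 0.97. A missed threshold does not show that the responses were equal.

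Old free libraries were set directly against young locked ones. The difference uses no old locked library, but its SE rests on a spread estimated over the whole wheel cohort. It shares the young locked libraries with the age comparison and the old free libraries with the wheel comparison. In the fit it equals the sum of those age and wheel differences. Of the 83 genes 32 were called, 12 higher and 20 lower, against 41% of all genes (21.8% higher and 19.2% lower). The share of 38.6% lay near that of all genes. The groups did not overlap for 18 of the 83, all of them called, against 20.8% of all genes. Col1a1 (-2.28 ± 0.26, adjusted p = 2.40e-06) and Col1a2 (-1.45 ± 0.24, adjusted p = 0.000110) were lower in old free libraries, with Lamb1 (-1.05 ± 0.19), Mmp2 (-1.20 ± 0.16) and Adamts2 (-1.26 ± 0.27). Col8a1 (2.83 ± 0.34, adjusted p = 4.55e-06) and Col4a6 (1.15 ± 0.25, adjusted p = 0.000994) were higher. Adam8 (1.98 ± 0.46), Col4a5 (0.87 ± 0.13) and Loxl1 (0.88 ± 0.20) were also higher. Endothelial markers gave 7 higher and 1 lower of 10, with sums of 180 to 260 RPKM in old free and 110 to 165 in young locked libraries. Myofibre markers gave 7 lower of 9 (40.4 to 142 RPKM against 120 to 682), satellite cell markers 2 higher and 5 lower of 12 (2531 to 3432 against 2889 to 3674) and fibroblast markers 5 higher and 1 lower of 11. Their part was not tested.

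Several genes that were called for age and for the wheel in old mice were not called between old free and young locked libraries. The age and wheel comparisons use the old locked libraries with opposite signs. Picking genes called in opposite directions in both thereby favours small differences here. The interval was -0.42 to 0.03 for Col3a1, -0.50 to -0.03 for Col4a1 (adjusted p = 0.0617), -0.49 to 0.08 for Col4a2 and -0.24 to 0.24 for Col15a1. It was -0.19 to 0.25 for Col18a1, -0.09 to 0.40 for Lox and -0.36 to 0.17 for Lama3. These intervals bound how far old free libraries lay from young locked ones, and do not show equality. Col6a1, also lower with age and higher with the wheel in old mice, was still lower in old free libraries (-0.55 ± 0.11, adjusted p = 0.000618), at 77.1, 96.8, 91.7, 95.9 and 93.3 RPKM against 112 to 179 (median 122). Adam12 was not called and measured 0.958 to 1.70 RPKM against 0.725 to 1.84 in young locked libraries. Col19a1, which was lower with age and with the wheel, fell by 0.96 ± 0.13 here (adjusted p = 9.76e-06). The ratio of Col1a1 to Col1a2 was 1.64 to 2.58 (median 2.22) in old free libraries, below the young locked range of 2.96 to 4.78.

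Loss of Ccnd1 was accompanied by few calls among these genes in young mice. KO against WT called 3 of 83 (3.61%), 2 higher and 1 lower, against 6.99% of all genes (5.05% higher and 1.94% lower), with 15 at an unadjusted limma p under 0.05. Mmp12, the macrophage elastase, measured 0.182, 0.0630 and 0.166 RPKM in WT and 1.00, 1.11, 0.380, 1.49 and 0.870 in KO libraries. It was higher in every KO library, with a rise of 2.84 ± 0.72 (adjusted p = 0.0332) at levels near or below 1 RPKM. Haematopoietic markers, which include macrophage genes, gave 0 limma calls of 9 (0 at an unadjusted p under 0.05), with sums of 59.3 to 153 RPKM in KO and 78.7 to 148 in WT libraries. Cd74 held much of these sums, with means of 32.2 RPKM in KO and 54.2 in WT, whereas Lyz2 had means of 48.1 and 31.0. By fitted difference 4 of the 9 were positive and 5 negative. Their part in the Mmp12 difference was not tested. Col20a1 measured 2.55, 0.888 and 1.57 RPKM in WT and 3.04, 3.89, 9.51, 3.28 and 3.82 in KO, and rose by 1.48 ± 0.40 (adjusted p = 0.0429). Col19a1 measured 25.4, 27.6 and 22 RPKM in WT and 15.1, 23.3, 14.9, 16.5 and 11.6 in KO, overlapped in 1 library, and fell by 0.65 ± 0.16 (adjusted p = 0.0302). None of the 3 calls held in each of the 8 omissions of 1 library.

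The main collagens were not called in KO: the intervals were -1.35 to 0.40 for Col1a1, -0.79 to 0.10 for Col3a1 and -0.22 to 0.45 for Col4a1. The called share of these lists ran from 0% to 10.5%, against 6.99% of all genes. Pathway lists with 2 calls each were folding and secretion (Colgalt2 1.30 ± 0.37 and Sec23a -0.45 ± 0.11) and other matrix proteins (Postn 1.64 ± 0.42 and Thbs4 1.56 ± 0.43). Itgb4 (1.24 ± 0.32) was the 1 call of the receptor list. Tendon markers moved alongside, with 3 of 8 higher (Thbs4, which the matrix list also holds, Comp and Cilp2) and sums of 118 to 217 RPKM in KO and 31.1 to 150 in WT libraries. Their part was not tested.

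**Figure D5:**
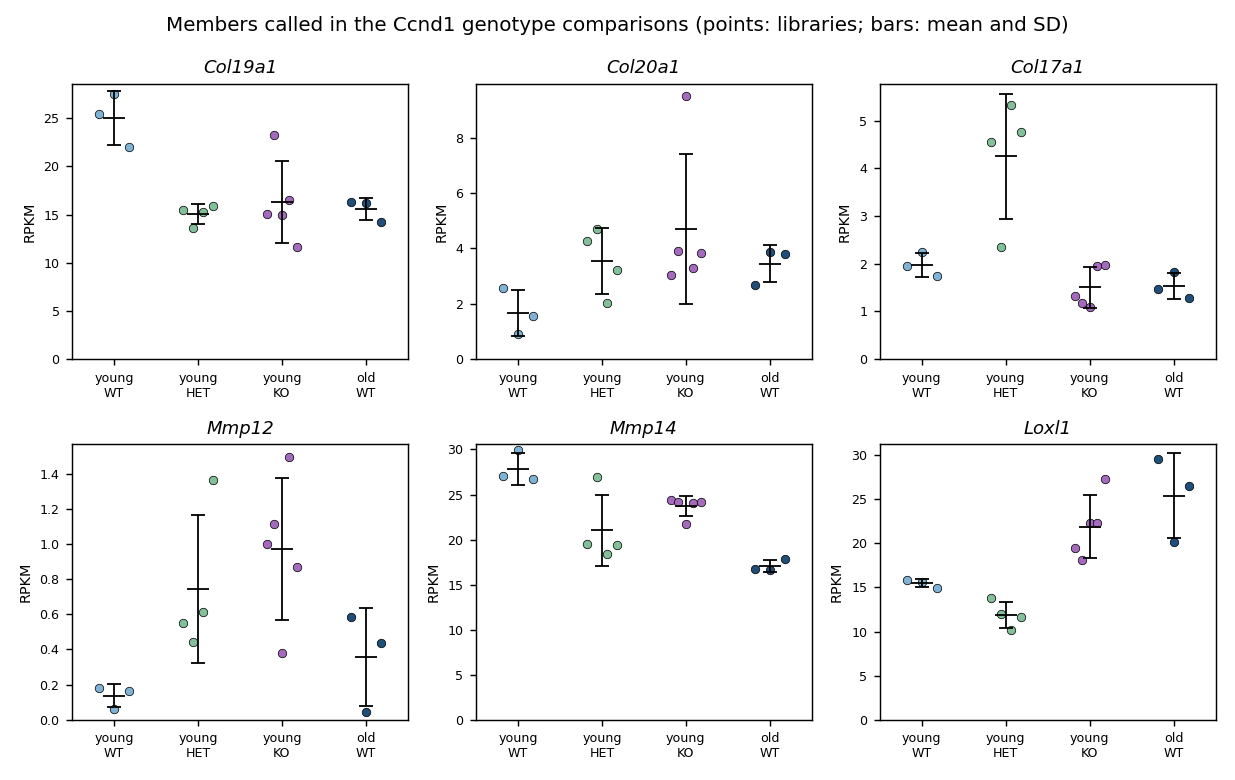
RPKM (y axis, from 0) of 6 genes in the 4 groups of the Ccnd1 cohort, with points for libraries and bars for mean and SD. Col17a1 is highest in HET libraries (2.36 to 5.34 RPKM), and Mmp12 in KO libraries (0.380 to 1.49) lies above young WT libraries (0.0630 to 0.182).

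HET against WT called 3 of 83 (3.61%), 1 higher and 2 lower, against 5.39% of all genes (1.98% higher and 3.4% lower). Col17a1, the transmembrane collagen of epidermal hemidesmosomes, measured 4.55, 2.36, 5.34 and 4.76 RPKM in HET and 1.96, 2.24 and 1.73 in WT, and rose by 1.05 ± 0.27 (adjusted p = 0.0418). All 4 keratinocyte markers (Krt1, Krt5, Krt10 and Krt14) were called higher in the same libraries. Their summed level was 85.2, 52.7, 77.1 and 145 RPKM in HET replicates 1 to 4, in the order of the Col17a1 values above. Fibroblast markers gave 2 lower of 11, with sums of 750 to 807 RPKM in HET and 1004 to 1590 in WT, and satellite cell markers 3 lower of 12 (Pax7, Myf5 and Msc; 2376 to 2996 against 2919 to 3598). Their part in these differences was not tested. Col19a1 measured 15.4, 13.6, 15.3 and 15.9 RPKM in HET, all below WT, and fell by 0.73 ± 0.17 (adjusted p = 0.0270). Mmp14 measured 19.5, 26.9, 18.4 and 19.4 RPKM in HET against 27.0, 29.9 and 26.7 in WT, overlapping in 1 library, and fell by 0.42 ± 0.11 (adjusted p = 0.0437). None of the 3 calls held in each of the 7 omissions of 1 library.

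KO against HET also called 3 of 83, 2 higher and 1 lower, against 6.04% of all genes (5.15% higher and 0.891% lower). Col17a1 measured 1.33, 1.18, 1.09, 1.95 and 1.97 RPKM in KO, below every HET library, and fell by 1.48 ± 0.24 (adjusted p = 0.00392), as did all 4 keratinocyte markers. Loxl1, a lysyl oxidase of elastic fibres, measured 13.8, 11.9, 10.1 and 11.7 RPKM in HET and 19.5, 18.1, 22.3, 22.4 and 27.3 in KO, and rose by 0.88 ± 0.13 (adjusted p = 0.00226). Young WT libraries lay between, at 15.9, 15.6 and 15.0 RPKM, and KO against WT missed the threshold for Loxl1 (0.49 ± 0.14, adjusted p = 0.0510). Col11a2 rose by 1.56 ± 0.27 (adjusted p = 0.00523) from 0.211 to 0.473 RPKM in HET to 0.716 to 1.45 in KO. All 3 calls held in each of the 9 omissions of 1 library. The median difference was 0.053 over the 83 genes and 0.0815 over all genes. Tendon markers gave 4 higher of 8, with sums of 118 to 217 RPKM in KO and 78.7 to 93.8 in HET libraries. Of 11 fibroblast markers 0 were called and 10 had a positive difference, with sums of 953 to 1196 RPKM in KO and 750 to 807 in HET. The part of keratinocyte, tendon and fibroblast markers in these differences was not tested.

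Age in the Ccnd1 cohort called 21 of 83 (25.3%), 5 higher and 16 lower, against 15.8% of all genes (8.03% higher and 7.76% lower). Col1a1 measured 87.8, 92.3 and 232 RPKM in young WT and 13.5, 26.4 and 33.5 in old WT, and fell by 2.43 ± 0.45 (adjusted p = 0.00447). Adam12 measured 1.17, 1.15 and 2.34 RPKM in young and 0.522, 0.445 and 0.690 in old WT, and fell by 1.43 ± 0.28 (adjusted p = 0.00503). Col4a6 measured 0.634, 0.626 and 0.762 RPKM in young and 2.29, 2.33 and 2.34 in old WT, and rose by 1.79 ± 0.28 (adjusted p = 0.00142). Col4a5 measured 1.5, 1.54 and 2.25 RPKM in young and 4.14, 3.97 and 3.99 in old WT, and rose by 1.22 ± 0.18 (adjusted p = 0.00105). The groups did not overlap for 37 of the 83 genes, the 21 called ones among them, against 37% of all genes. Tendon markers gave 2 higher of 8 (123 to 165 RPKM in old against 31.1 to 150 in young WT), fibroblast markers 2 higher of 11 (1150 to 1333 against 1004 to 1590), endothelial markers 2 higher of 10 (154 to 166 against 105 to 158), mural markers 1 lower of 10 and satellite cell markers 2 lower of 12. Their part was not tested. Without young WT replicate 3, which held the highest young WT Col1a1 and Lamb1 (18.7 RPKM against 4.53 and 7.04), 11 genes were called. Of the 21 calls 10 held in each of the 6 omissions of 1 library.

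The authors' deposited table also gives for each gene a correlation coefficient with Ccnd1, whose samples and method are not stated there. In the authors' deposited table the highest coefficients of the 83 genes were 0.689 for Col8a1, 0.634 for Adamts7, 0.614 for Adamts20 and 0.613 for Adam19. The lowest in the authors' deposited table were -0.675 for Col6a3, -0.552 for Mmp23, -0.549 for Adamts9 and -0.523 for Col20a1.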

How the data were processed

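RNA was measured by polyA sequencing in 36 libraries of sorted MuSCs. The authors deposited RPKM for 11337 genes, together with a correlation score of each gene with Ccnd1. Per the submitters' processing notes, Trim Galore, STAR, featureCounts of Subread and mm10 were used; versions, strand setting and the adjustment behind the missing directions of variation were not given in the sources used here. Antisense or overlapping genes are therefore uncertain. Multiplied by exon kb, the RPKM of a library summed to between 958293 and 1204774. The lowest value was 0.00144, with 0 values at 0. Library depth is unknown from these values, so no counting interval is given.

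Values were log2-transformed with no pseudocount and no filter. Within each cohort limma 3.58.1 (R 4.3.3, eBayes with trend and robust settings, statmod 1.5.0) was fitted with 1 mean per group, adjustment was by Benjamini-Hochberg across all 11337 genes, and the scripts were tested on simulated data. Figures used Python 3.11.15 and matplotlib 3.10.9. Intervals are 95%. Each library is 1 mouse, and p-values rest on the spread between mice that is left in the deposited values. The effect of the missing directions on SEs and p-values was not tested, and they may be too small. GENCODE M21 held 11335 of the identifiers and supplied the mm10 positions.

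The genes, roles, pathway lists and marker lists were chosen with earlier results of these data known. Genes given with library values were the up to 4 largest called increases and decreases with a mean of at least 1 RPKM (up to 2 for HET, KO against HET, old free against young locked and age in WT). Where 0 were called, the 3 with the lowest p were taken. Called genes with lower means over the libraries compared (Mmp12, Col11a2, Adamts7, Adam8 and, for the wheel in old mice, Adam12) and genes of set roles were named beside them. Alternatives were log2(RPKM + 1), a mean of at least 1 RPKM, median-of-ratios scaling, other libraries in the fit, eBayes without trend and robust settings, a replicate block and omission of each library. The values of 1 gene are not reported here by name.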

Additional observations from a re-analysis of the deposited data

Results flagged for a closer look

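Within the groups of 4 to 10 libraries, 49 sets of values of genes given by library were examined for a library far from its group (Dixon's ratio), and 6 held one. Chance flags about 1 in 20 such groups. Low values were Adamts1 in old free replicate 3 (98.1 RPKM, the next library at 120), Col4a6 in young locked replicate 1 (0.361 RPKM, next 0.680), Col8a1 in young locked replicate 4 (1.99 RPKM, next 4.06) and Lama3 in old locked replicate 1 (5.03 RPKM, next 6.39). High values were Col20a1 in young KO replicate 3 (9.51 RPKM, next 3.89) and Mmp14 in young HET replicate 2 (26.9 RPKM, next 19.5). Without these libraries the called age differences of Col4a6, Col8a1 and Lama3 were still called, as was Mmp14 in HET. Col20a1 in KO and Adamts1 for the wheel in old mice were not.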

How the results depend on the processing

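The 38 differences picked by the naming rule did not reverse in sign in any alternative run on them, and other differences were not followed. Leaving aside omissions and over 7 alternatives, 234 of 263 such values kept their side of the threshold and 29 were no longer called. Counts of called genes moved as follows. With the compared groups fitted alone, 1 gene was called for the wheel in young mice (4 in the report), 1 for KO (3) and 1 for HET (3). With all 36 libraries in 1 fit, 7 were called for HET and 5 for KO against HET (3). The sample titles number replicates without stating a pairing of mice. Correlations of same-numbered libraries ran from -0.259 to 0.302. No comparison had every pair over 0.1, although 4 of 5 pairs did for the wheel in old mice. With few pairs per comparison and directions of variation missing, these values cannot decide whether mice were paired. With the replicate block, 0 genes were called for the wheel in young mice, 0 for KO, 0 for HET, 1 for KO against HET and 11 for age in WT (21), beside 38 for age with a locked wheel (42), 12 for the wheel in old mice (15, of which 7 were called in both), 28 for old free against young locked (32) and 0 for the interaction. For the wheel in old mice the block called 3 network collagens higher and 1 lower (Col4a6), and did not call Col8a1, Lama3, Adam19, Adamts1, Adamts7, Col18a1, Col5a2 or Col6a1. Omitting 1 library gave 38 to 43 genes for age with a locked wheel, 6 (without old free replicate 3) to 18 for the wheel in old mice, 0 (without young free replicate 1 or 2) to 5 for the wheel in young mice, 0 for the interaction and 29 to 34 for old free against young locked. It gave 0 (without young WT replicate 2, young WT replicate 3 or young KO replicate 5) to 6 (without young KO replicate 2) for KO. For HET it gave 0 (without young WT replicate 2 or young HET replicate 1 or 4) to 3, and for KO against HET 3 to 5 (without young HET replicate 2 or young KO replicate 4). For age in WT it gave 11 (without young WT replicate 3) to 23. Omission leaves fewer libraries, and the cause of the other moves was not tested. Unknown depth limits genes under 1 RPKM.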
